A study of Mus musculus with 8 samples.

Results

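The genes described here are 8 members of the CC chemokine system that draws monocytes and their relatives into inflamed tissue: the ligands Ccl2, Ccl7, Ccl12, Ccl3, Ccl4 and Ccl5 and the receptors Ccr1 and Ccr2. They were chosen by symbol for their role, by a rule that uses no measured value, and all 8 were found among the 22740 listed genes and passed the filter on low counts, as did 15163 genes in all. RNA sequencing had been made from skin of female BALB/c mice, 8 mice in all, each giving 1 library, in 4 groups of 2. The study's methods give an age of 6 to 8 weeks for mice entering the allergen model and state no separate age for baseline skin at sampling. All mice were on a low-fibre diet, per the study's methods, and none carried an engineered allele. Baseline CTL mice (replicates 1 and 2) drank water alone, and baseline butyrate mice (replicates 1 and 3) drank 400 mM sodium butyrate, a short-chain fatty acid, from 2 weeks before the time of allergen exposure, with no allergen put on the skin. Lesional CTL mice (replicates 4 and 5) and lesional butyrate mice (replicates 3 and 4) had the same drinks and received 4 epicutaneous exposures to 15 µg of house dust mite extract (HDM) over 2 weeks, a model of atopic dermatitis-like skin inflammation. The first number in the mouse labels is not the same for baseline as for lesional animals, and if it marks separate sets, HDM exposure cannot be told apart from them.

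CC chemokines are small secreted proteins with a pair of adjacent cysteines near the start of the mature chain, and they act through receptors that couple to G proteins on leukocytes. Ccl2, Ccl7 and mouse Ccl12 are ligands of CCR2, the receptor by which inflammatory monocytes leave the bone marrow and enter tissue. Ccl3 and Ccl5 are ligands of CCR1, and with Ccl4 they are made in large amounts by activated macrophages, neutrophils and lymphocytes, while Ccl2 and Ccl7 also come from keratinocytes, fibroblasts and endothelium.

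The 6 ligands lie in 2 groups on chromosome 11 (GRCm38, GENCODE vM21). Ccl2 (ENSMUSG00000035385, chr11:82035571-82037453, plus strand), Ccl7 (ENSMUSG00000035373, chr11:82045712-82047525, plus strand) and Ccl12 (ENSMUSG00000035352, chr11:82101845-82103400, plus strand) are neighbours. Further along are Ccl5 (ENSMUSG00000035042, chr11:83525778-83530518, minus strand), Ccl3 (ENSMUSG00000000982, chr11:83647844-83649355, minus strand) and Ccl4 (ENSMUSG00000018930, chr11:83662584-83664683, plus strand). The receptors lie together on chromosome 9, Ccr1 (ENSMUSG00000025804) at chr9:123962124-123968692 on the minus strand and Ccr2 (ENSMUSG00000049103) at chr9:124101950-124113557 on the plus strand. Ccl2 is overlapped on the other strand by Gm17268, which had 0 counts in every mouse.

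The coding sequence around the paired cysteine codons shows how alike the ligands are and where they part, which bears on whether reads could be assigned to the wrong gene. Each stretch below has 45 bases from exon 2 of 3, 5′ to 3′ on the gene's own strand, with the cysteine codons in capitals.
Ccl2: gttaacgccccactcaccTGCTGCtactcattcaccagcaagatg
Ccl7: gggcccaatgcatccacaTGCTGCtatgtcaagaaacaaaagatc
Ccl12: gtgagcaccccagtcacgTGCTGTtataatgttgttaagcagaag
Ccl3: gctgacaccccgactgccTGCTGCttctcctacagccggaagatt
Ccl4: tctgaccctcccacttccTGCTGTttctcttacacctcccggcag
Ccl5: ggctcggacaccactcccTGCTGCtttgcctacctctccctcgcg
The stretches lie at chr11:82036488-82036532 (Ccl2), chr11:82046520-82046564 (Ccl7), chr11:82102616-82102660 (Ccl12), chr11:83648631-83648675 (Ccl3), chr11:83663464-83663508 (Ccl4) and chr11:83529221-83529265 (Ccl5). Ccl12 and Ccl4 spell the second cysteine TGT and the other ligands spell it TGC. Over the whole coding sequence, the closest pair of ligands was Ccl2 and Ccl7 with 72.1% identical bases, followed by Ccl3 and Ccl4 with 71.1%. The longest run of identical bases in any pair of ligands was 17 bases, between Ccl2 and Ccl12, and Ccr1 and Ccr2 shared 67.7% of bases with a longest run of 15.

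Libraries held between 18004136 and 21085544 counts, and 3 counts, used here as the floor of detection, corresponded to 0.138 to 0.169 CPM (counts scaled to libraries of one common size). CPM values were scaled by edgeR's TMM factors. The 2 baseline butyrate mice stood far apart, with 23.3% of tested genes differing more than 2-fold between them, against 0.692% to 3.29% in the other groups, and 5 of the 8 members did so. The calls of members in the comparisons that involve no baseline butyrate mouse are therefore also given without both of these mice. This alternative was chosen after seeing the data. Fold changes, FDRs and calls of genes other than members are those of the fit of all 8 mice and were not checked in this way. Skin markers were present as labelled, with Krt5 between 3797 and 5945 CPM in every mouse, while the muscle gene Acta1 ranged from 2674 CPM in baseline butyrate replicate 3 to 13750 CPM. In such bulk samples, fewer cells of a type and less RNA per cell cannot be told apart. Nothing in the labels says more of how replicates were taken than that they are separate mice, and an exact permutation test of 2 mice against 2 cannot give a p below 0.333, so the tests below are those of edgeR's quasi-likelihood model across all genes.

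**Figure D1:**
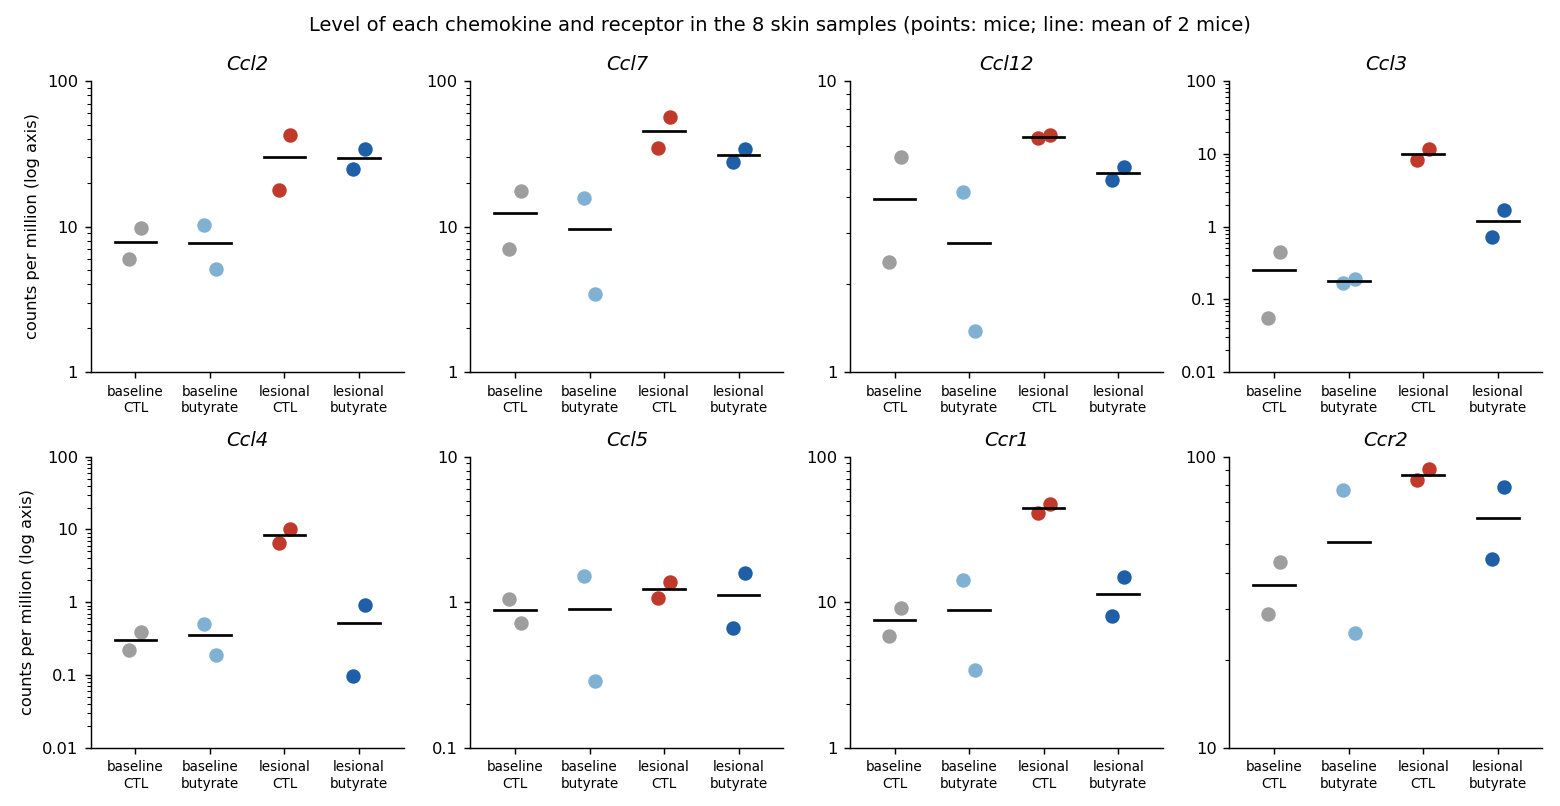
Level of each member in CPM on a log axis, with 1 point per mouse and a line at the mean of the 2 mice of a group. Ccl4 and Ccr1 stand high in lesional CTL mice alone. Ccl3 is highest in these mice, with the lesional butyrate mice between them and the baseline mice. Ccl2 and Ccl7 stand high in both lesional groups.

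Of the CCR2 ligands, Ccl2 and Ccl7 had higher values in every lesional mouse of both drinking groups than in any baseline mouse, and Ccl12 did so in lesional CTL mice alone. None of these differences was called in the fit of all 8 mice described below. Ccl2 was at 5.95 and 9.71 CPM in baseline CTL mice and at 10.2 and 5.14 CPM in baseline butyrate mice. In lesional skin it was at 17.8 and 42.4 CPM in CTL mice and at 25.0 and 34.0 CPM in butyrate mice. Every lesional mouse lay above every baseline mouse, and the 2 lesional groups overlapped. Ccl7 was at 7.06 and 17.5 CPM in baseline CTL, 15.7 and 3.43 CPM in baseline butyrate, 34.6 and 56.6 CPM in lesional CTL and 27.7 and 34.1 CPM in lesional butyrate skin. Lesional butyrate mice were just below lesional CTL mice, and both lay above all baseline mice. Ccl12, the mouse relative of these ligands, moved least, with 2.39 and 5.49 CPM in baseline CTL, 4.17 and 1.38 CPM in baseline butyrate, 6.35 and 6.51 CPM in lesional CTL and 4.58 and 5.07 CPM in lesional butyrate skin. Its lesional CTL mice were above all other mice, and its lesional butyrate mice overlapped the baseline CTL mice.

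Ccl3, Ccl4 and Ccl5 behaved otherwise. Ccl3 was near the floor in baseline skin, with 0.0556 and 0.444 CPM in CTL mice (1 and 8 reads) and 0.169 and 0.191 CPM in butyrate mice (3 and 4 reads). Lesional CTL mice had 8.27 and 11.6 CPM (155 and 251 reads), and lesional butyrate mice had 0.716 and 1.67 CPM (15 and 36 reads). Lesional butyrate skin thus lay between baseline and lesional CTL skin, without overlap with either. Ccl4 was at 0.222 and 0.389 CPM in baseline CTL and at 0.507 and 0.191 CPM in baseline butyrate skin. It reached 6.62 and 10.1 CPM in lesional CTL mice but 0.0955 and 0.930 CPM in lesional butyrate mice, of which the former rests on 2 reads. For Ccl4 the lesional butyrate mice overlapped both baseline groups, and the lesional CTL mice stood alone. Ccl5, a product of T and NK cells as well as of macrophages, was low throughout, with 1.06 and 0.722 CPM in baseline CTL, 1.52 and 0.286 CPM in baseline butyrate, 1.07 and 1.38 CPM in lesional CTL and 0.668 and 1.58 CPM in lesional butyrate skin. Neighbouring groups in the order of its means all overlapped.

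Of the receptors, Ccr1 followed Ccl3 and Ccl4 more than it followed the CCR2 ligands. It was at 5.89 and 9.10 CPM in baseline CTL, 14.3 and 3.43 CPM in baseline butyrate, 40.8 and 47.5 CPM in lesional CTL and 8.02 and 14.9 CPM in lesional butyrate skin. Only the lesional CTL mice stood clear of the rest. Ccr2 was at 28.8 and 43.6 CPM in baseline CTL, 76.8 and 24.8 CPM in baseline butyrate, 82.9 and 90.6 CPM in lesional CTL and 44.5 and 78.9 CPM in lesional butyrate skin. Its order was that of Ccr1, with lesional CTL mice above all others, but the higher mouse of lesional butyrate and of baseline butyrate skin came close to them.

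To ask what allergen exposure did without butyrate, lesional and baseline CTL skin were compared. Ccl3 and Ccl4 rose and were the 2 of 8 members called (FDR under 0.1 and more than a 2-fold change, the thresholds of the study), where 3.58% of all tested genes were called and 2.37% were called higher. Ccl3 rose by 5.28 on the log2 scale (SE 0.78, FDR 0.0396) and Ccl4 by 4.74 (SE 0.95, FDR 0.0722). From the summed reads of the 2 mice, the rise was 40.2-fold for Ccl3 (exact 95% interval 20.97 to 88.6, counting error only) and 27.7-fold for Ccl4 (15.3 to 56.0). The log2 fold change of Ccl3 was 7.33 without baseline CTL replicate 2 and 4.46 without baseline CTL replicate 1, and that of Ccl4 ranged from 4.40 to 5.19 with 1 mouse left out. Ccr1, Ccl2 and Ccl7 differed by 2.56 (SE 0.68, FDR 0.128), 1.94 (SE 0.54, FDR 0.137) and 1.89 (SE 0.75, FDR 0.241), and were not called. Ccr2 differed by 1.26 (SE 0.55, FDR 0.274), Ccl12 by 0.70 (SE 0.58, FDR 0.512) and Ccl5 by 0.46 (SE 0.79, FDR 0.761). All 8 members had higher values in both lesional CTL mice than in both baseline CTL mice, as had 36.7% of tested genes, 5 had an unadjusted p below 0.05, as had 19.7%, and the median of the 8 log2 fold changes was 1.92 against -0.02 over all tested genes. Without both baseline butyrate mice, edgeR called 6 members (Ccl2, Ccl7, Ccl3, Ccl4, Ccr1 and Ccr2) against 12.4% of all genes, and it called the same 6 with only the compared mice (12.9% of genes) and without baseline butyrate replicate 1 (12.3%) or 3 (12.5%). DESeq2 on all mice called 5 members (all of these but Ccr2) against 7.21% of genes, and limma-voom called Ccl3, Ccl4 and Ccr1 against 3.81%. Without 1 CTL mouse of either compared group the calls did not hold, in fits that called few or no genes of any kind. Without 1 lesional butyrate mouse, Ccl4 kept its call and Ccl3 did not, and a smaller share of all genes was called. With 1 mouse left out, the log2 fold change of Ccr1 ranged from 2.277 to 2.905 and that of Ccl2 from 1.187 to 2.437.

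**Figure D2:**
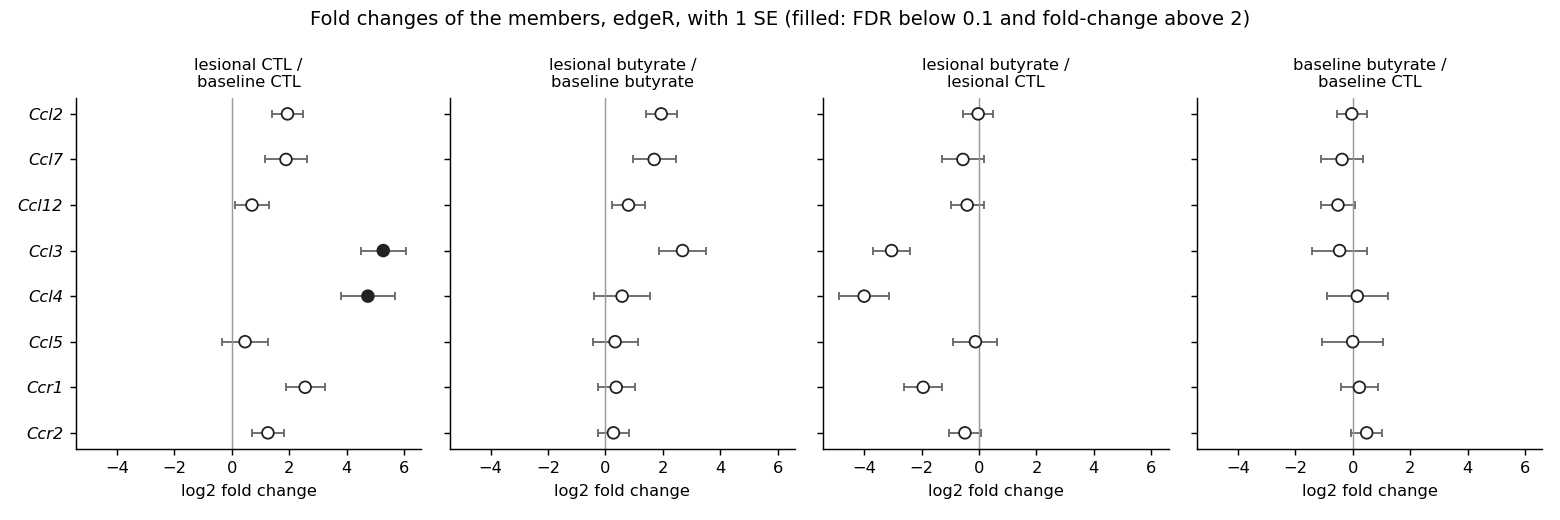
Log2 fold changes of the 8 members (rows) in 4 comparisons (panels), fitted by edgeR, with bars of 1 standard error. Filled points passed the FDR and fold-change thresholds, which were Ccl3 and Ccl4 in lesional against baseline CTL skin; Ccl2 has nearly the same value in both lesional against baseline panels, 1.94.

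Whether butyrate altered these genes in allergen-exposed skin was asked by comparing the lesional groups, which share the lesional CTL mice with the comparison above. Ccl3 was 8.36-fold lower in butyrate mice by summed reads (exact 95% interval 6.24 to 11.4), Ccl4 was 16.3-fold lower (10.6 to 26.4, intervals for counting error only) and Ccr1 was 3.85-fold lower by the fitted model, while Ccl2 was nearly level. None of the 8 members was called by edgeR, as was 0% of all 15163 genes, and 3 members (Ccl3, Ccl4 and Ccr1) had an unadjusted p below 0.05, as had 4.84% of all genes. For Ccl3 the log2 fold change was -3.05 (SE 0.66, FDR 0.737), for Ccl4 it was -4.001 (SE 0.88, FDR 0.737) and for Ccr1 it was -1.95 (SE 0.66, FDR 0.933). With 1 mouse left out, the log2 fold change of Ccl4 ranged from -6.36 (without lesional butyrate replicate 4) to -3.16 (without lesional butyrate replicate 3), and these 2 mice also set the ranges of -3.78 to -2.56 for Ccl3 and -2.46 to -1.57 for Ccr1. These 3 genes are labelled in plots of the study that were drawn from lesional skin of the same series, so their direction here is not independent evidence of it. The other differences were -0.56 (SE 0.72) for Ccl7, -0.49 (SE 0.54) for Ccr2, -0.41 (SE 0.57) for Ccl12, -0.12 (SE 0.77) for Ccl5 and -0.03 (SE 0.51) for Ccl2, with FDRs of 1.00. Lower values in both butyrate mice than in both CTL mice were found for 6 members and for 22.5% of tested genes.

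The calls between lesional groups depended on which other mice shared the fit, and how those mice altered the calls was not tested. Without both baseline butyrate mice, edgeR called Ccl3 (FDR 0.0827), Ccl4 (FDR 0.0826) and Ccr1 (FDR 0.0823), all lower, against 1.25% of all genes. Their log2 fold changes were -3.05, -4.0 and -1.95. The same 3 members were called without either one of these mice (1.22% of genes in each case). With only the 4 lesional mice in the fit, which also leaves out both baseline butyrate mice, no member was called (FDR 0.149 for Ccl3, 0.168 for Ccl4 and 0.151 for Ccr1) and 0.168% of genes were. DESeq2 on all 8 mice called Ccl3 (FDR 0.00245) and Ccl4 (FDR 0.00352) against 0.818% of all genes, and limma-voom as fitted here called no member and 0.0066% of genes.

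Most neutrophil genes differed in the same direction as Ccl3, Ccl4 and Ccr1, both between lesional and baseline CTL skin and between lesional groups. The summed level of 11 neutrophil markers was 89.9 and 91.1 CPM in baseline CTL, 43.1 and 87.8 CPM in baseline butyrate, 1858 and 2907 CPM in lesional CTL and 409 and 846 CPM in lesional butyrate skin. Pairs of summed marker levels here and below give the lower mouse first and do not follow replicate order. Of the 10 tested, 9 were called higher in lesional than baseline CTL skin, as were 2.37% of all genes, and 1 had a log2 fold change below 0. None was called between lesional groups (0% of genes), and all 10 were lower in both lesional butyrate mice than in both lesional CTL mice, 9 of them at an unadjusted p below 0.05, against 22.5% and 4.84% of all genes. S100a8, a large part of these sums, was at 1000 and 579 CPM in lesional CTL and at 265 and 102 CPM in lesional butyrate skin, in replicate order. Which cells made it was not tested. Of the 10, 9 were higher in lesional than baseline butyrate skin without overlap, as were 15.7% of all genes, whereas Ccl4 and Ccr1 overlapped there. Ly6g, which defines mouse neutrophils, was at 0 in both lesional butyrate mice and in both baseline CTL mice and at 0.107 and 0.231 CPM in lesional CTL mice, close to the floor. Markers of macrophages summed to 1900 and 2202 CPM in lesional CTL and to 1030 and 1811 CPM in lesional butyrate skin, and all 12 had log2 fold changes below 0. The 8 monocyte markers summed to 89.8 and 140 CPM and to 36.2 and 83.5 CPM in these groups, against 75.7 and 172 CPM in baseline CTL skin, and Ly6c2 was at most 5.02 CPM in any mouse. Of 6 keratinocyte markers, 5 had log2 fold changes above 0 between lesional groups (median 1.05). Of 10 T and NK cell markers, 9 had values below 0 (median -0.35), and the median over all tested genes was -0.005. The part of these cells in the chemokine differences was not tested.

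In mice that drank butyrate, lesional and baseline skin were compared in the same way. None of the 8 members was called by edgeR, against 0.35% of all genes, and 2 members had an unadjusted p below 0.05, as had 13.1% of genes. Ccl3 differed by 2.69 (SE 0.82, FDR 0.288), Ccl2 by 1.94 (SE 0.54, FDR 0.267), Ccl7 by 1.70 (SE 0.75, FDR 0.401) and Ccl12 by 0.80 (SE 0.59, FDR 0.618). These 4 genes were higher in lesional skin without overlap, as were 15.7% of all tested genes. Ccl4, Ccr1, Ccl5 and Ccr2 differed by 0.58, 0.38, 0.34 and 0.28, each less than its standard error, and their groups overlapped. Either baseline butyrate mouse moved these values. Without replicate 3 no member was called, against 5.94% of genes, and Ccl5, Ccr1 and Ccr2 turned to -0.43, -0.31 and -0.31. Without replicate 1, 6 members were called higher (Ccl2, Ccl7, Ccl12, Ccl5, Ccr1 and Ccr2) against 19.1% of genes, while DESeq2 on all mice called Ccl2 and Ccl3 against 4.6%.

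Set against baseline CTL mice instead, with all 8 mice still in the fit, lesional butyrate skin again had no member called by edgeR, with 0.383% of genes called. An unadjusted p below 0.05 was found for 2 members and for 14.6% of genes, and 4 members (Ccl2, Ccl7, Ccl3 and Ccr2) were higher without overlap, as were 31.2% of genes. The largest differences were those of Ccl3 with 2.23 (SE 0.79, FDR 0.302), Ccl2 with 1.91 (SE 0.54, FDR 0.242) and Ccl7 with 1.33 (SE 0.74, FDR 0.431), and Ccr1 differed by 0.61 (SE 0.65). Without both baseline butyrate mice, Ccl2 (FDR 0.0419), Ccl7 (FDR 0.0849) and Ccl3 (FDR 0.0977) were called higher, against 8.43% of genes, as they were without baseline butyrate replicate 1 (8.2%) or 3 (8.34%). DESeq2 on all mice called Ccl2 and Ccl3 (3.76% of genes), and the fit of only the compared mice called Ccl2 (7.51%).

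In baseline skin, butyrate and CTL mice overlapped for all 8 members, while 13.8% of genes were higher and 15.9% lower without overlap, and none was called by edgeR, as was 0% of genes, or by DESeq2, which called 0.383% of genes. None had an unadjusted p below 0.05, as had 3.49% of genes. Their log2 fold changes lay between -0.51 (Ccl12) and 0.49 (Ccr2), with FDRs of 0.741 or above and standard errors of 0.53 to 1.06. Without baseline butyrate replicate 1, Ccl7, Ccl12 and Ccr1 were called lower, where 24.1% of all genes were called. The difference between the butyrate effects in lesional and in baseline skin was largest for Ccl4 with -4.16 (SE 1.37), Ccl3 with -2.59 (SE 1.202) and Ccr1 with -2.18 (SE 0.93), each with an FDR of 0.840. No gene passed for this difference in edgeR (0%), 1 member and 4.64% of genes had an unadjusted p below 0.05, and DESeq2 called no member and 0.244% of genes.

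Ratios of reads within a library do not depend on its size or scaling, and they set the CCR2 ligands against the others. Of the reads of Ccl3 and Ccl2 together, Ccl3 took 31.7% and 21.5% in lesional CTL mice (exact 95% binomial intervals 27.6 to 36.0 and 19.2 to 23.9) but 2.79% and 4.69% in lesional butyrate mice (1.57 to 4.56 and 3.31 to 6.44). In the 4 baseline mice the share was between 0.926% and 4.37%, the range that also held the lower of the lesional butyrate mice. Ccr1 took 33.0% and 34.4% of the reads of both receptors in lesional CTL mice, 15.3% and 15.9% in lesional butyrate mice, 17.0% and 17.3% in baseline CTL mice and 15.7% and 12.1% in baseline butyrate mice. Lesional butyrate mice thus lay within the range of the 4 baseline mice, and lesional CTL mice lay above it. The make-up of the CCR2 ligands differed with allergen exposure and not with butyrate in one pair: Ccl12 took 15.5% and 10.3% of the reads of Ccl12 and Ccl7 in lesional CTL mice and 14.2% and 12.9% in lesional butyrate mice, against 21.02% to 28.7% in baseline mice. For Ccl7 against Ccl2, lesional butyrate mice had 52.6% and 50.1% and lesional CTL mice 66.0% and 57.2%, both within the 40.0% to 64.4% of baseline mice apart from the 66.0%.

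**Figure D3:**
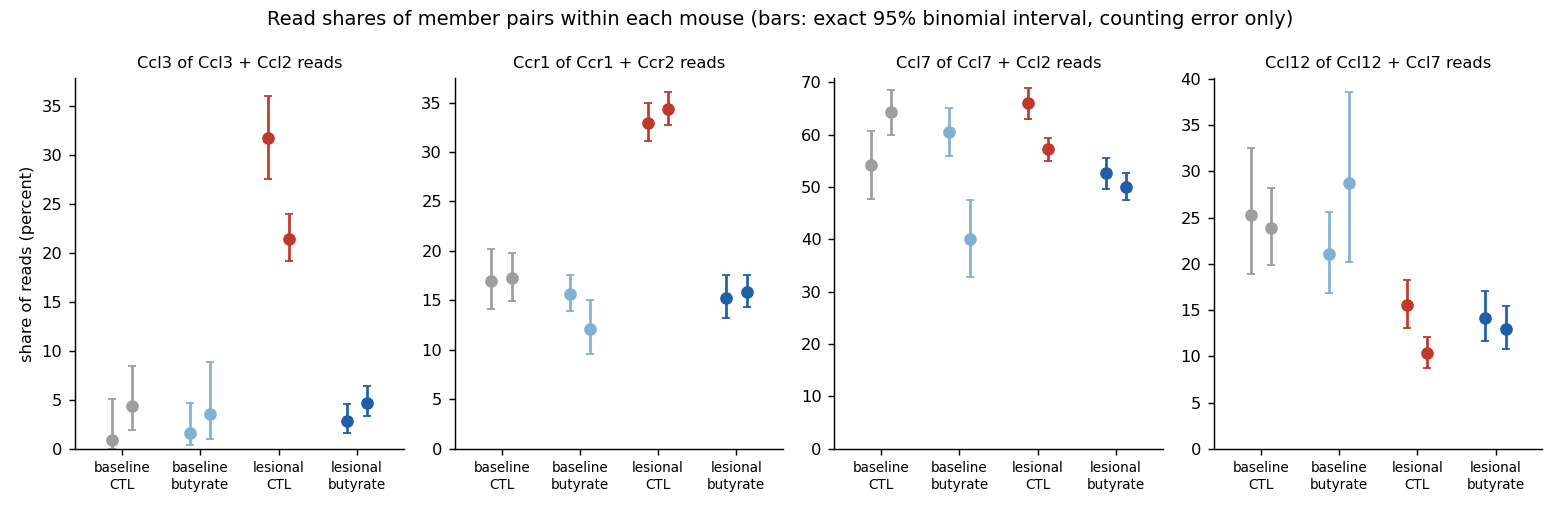
Share of reads that the first gene takes of the reads of both genes of a pair (percent), for 4 pairs, with 1 point per mouse and exact 95% binomial intervals that cover counting error only. In the Ccl3 and Ccr1 panels the lesional CTL mice stand apart and the lesional butyrate mice lie beside the baseline mice, with 2.79% and 4.69% for Ccl3.

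Compared per length, in RPKM (CPM divided by the exon length in kilobases), Ccl7 was the most abundant member in every group by its mean. In lesional CTL skin it had 56.9 ± 19.4 RPKM (SD, n = 2), ahead of Ccl2 with 26.5 ± 15.3, and 5 members followed within 11.97 to 15.6 RPKM, each overlapping the next: Ccr1, Ccl3, Ccr2, Ccl4 and Ccl12. Ccl5 came last with 1.28 ± 0.233 RPKM. In lesional butyrate skin the order was Ccl7 (38.6 ± 5.63), Ccl2 (25.9 ± 5.62), Ccr2 (9.13 ± 3.59), Ccl12 (8.99 ± 0.644), Ccr1 (4.04 ± 1.71), Ccl3 (1.56 ± 0.885), Ccl5 (1.17 ± 0.673) and Ccl4 (0.777 ± 0.895), with the last 3 overlapping one another in turn. As shares of the summed RPKM of the 6 ligands, Ccl3 and Ccl4 together made up 22.5% and 20.0% in lesional CTL mice, 1.61% and 4.13% in lesional butyrate mice and 2.05% to 4.40% in baseline mice. The 3 CCR2 ligands made up 76.3% and 79.0% in lesional CTL mice and 92.4% to 97.3% in the other 6 mice.

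**Figure D4:**
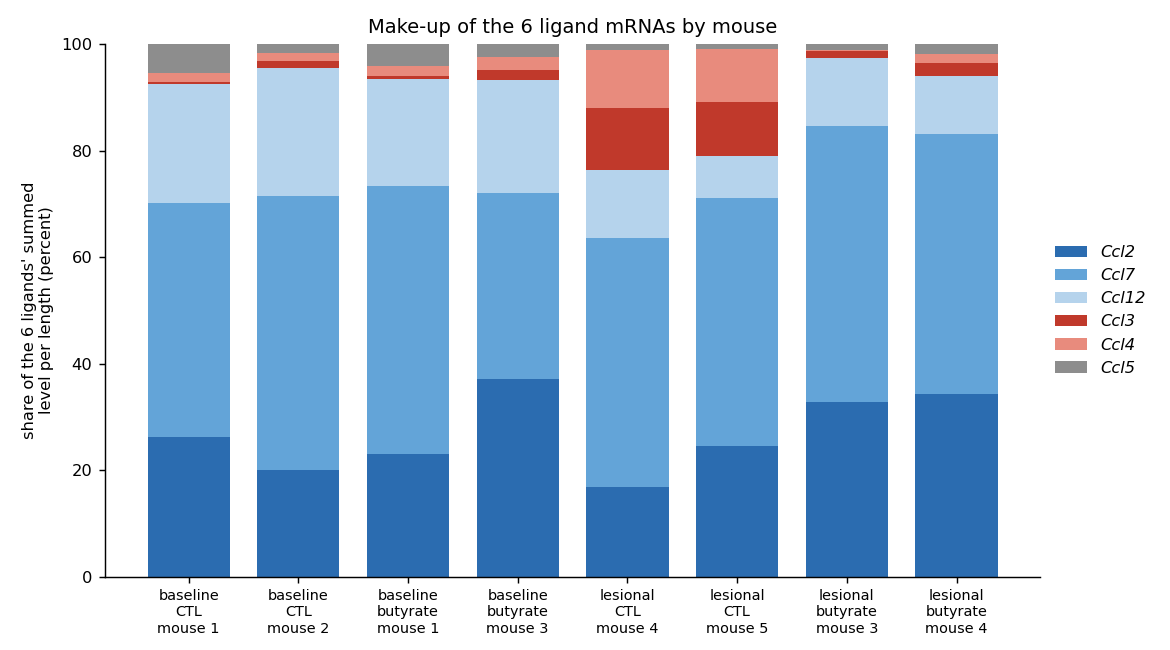
Share of each of the 6 ligands in their summed level per length (percent), as 1 stacked bar per mouse. Ccl3 and Ccl4 (red) fill 22.5% and 20.0% of the bars of the 2 lesional CTL mice and at most 4.40% of the other bars.

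Along the chromosomes, the 3 gene groups were not uniform. In the first group on chromosome 11, Ccl8, a ligand that lies 79.6 kb from the start of Ccl2, was called higher in lesional than baseline CTL skin with a log2 fold change of 3.14 (SE 0.72, FDR 0.0948), and the eosinophil chemoattractant Ccl11 differed by 0.96 (SE 0.55, FDR 0.375). Between lesional groups they differed by -0.71 (SE 0.67) and -0.31 (SE 0.55), close to the -0.56 of Ccl7. In the second group, Ccl9 and Ccl6 lie between Ccl5 and Ccl3 and were abundant already in baseline CTL skin, at means of 133 and 210 CPM. They differed by -1.07 (SE 0.68) and -1.32 (SE 0.82) between lesional groups, against -3.05 and -4.001 for their neighbours Ccl3 and Ccl4. In the chromosome 9 group, Ccr3, the eotaxin receptor, was called higher in lesional CTL skin with 3.06 (SE 0.57, FDR 0.0604) and differed by -2.12 (SE 0.52, FDR 0.737) between lesional groups, as Ccr1 did.

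**Figure D5:**
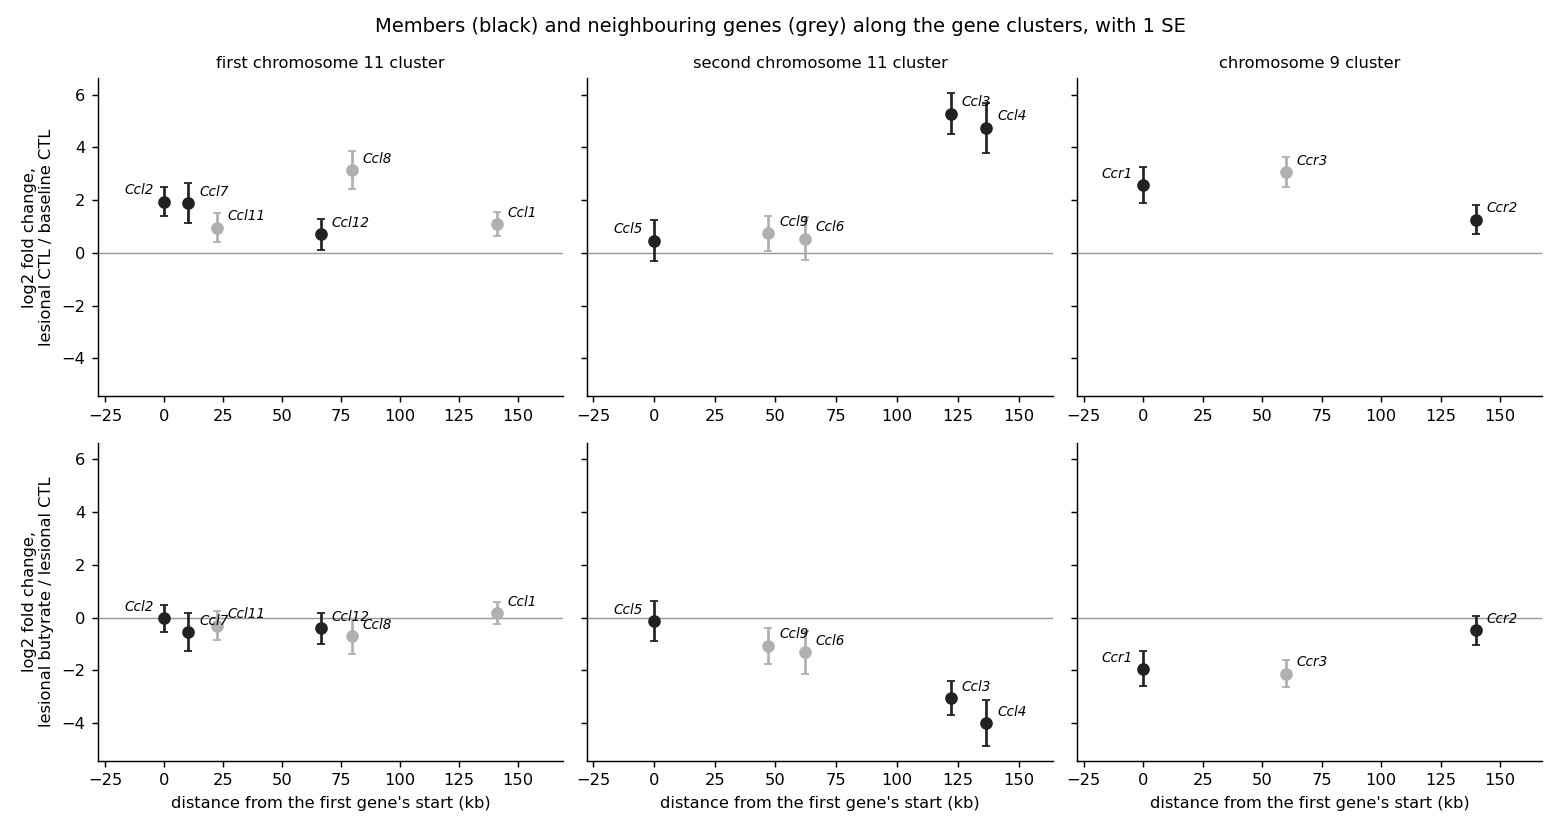
Log2 fold changes (1 SE) of members (black) and neighbouring chemokine and receptor genes (grey, not all shown) against the distance in kb from the start of the first gene of each group, for lesional against baseline CTL skin (top) and lesional butyrate against lesional CTL skin (bottom). Ccl3 and Ccl4 have the highest points of the top row, 5.28 and 4.74, and the lowest of the bottom row.

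Promoters were at hand for 4 of the 8 members (RefSeq, GRCm38.p6): Ccl12, Ccl3, Ccr1 and Ccr2. The 250 bases before the start are printed for Ccl3 and Ccr1, the members with an entry that differed most between lesional groups, 5′ to 3′ on the gene's strand, with the only motif match in capitals.
Ccl3, chr11:83649379-83649628, minus strand: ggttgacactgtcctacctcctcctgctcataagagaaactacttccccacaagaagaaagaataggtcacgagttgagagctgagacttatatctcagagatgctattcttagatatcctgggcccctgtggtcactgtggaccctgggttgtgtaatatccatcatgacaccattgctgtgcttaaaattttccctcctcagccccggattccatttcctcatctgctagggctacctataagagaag
Ccr1, chr9:123968693-123968942, minus strand: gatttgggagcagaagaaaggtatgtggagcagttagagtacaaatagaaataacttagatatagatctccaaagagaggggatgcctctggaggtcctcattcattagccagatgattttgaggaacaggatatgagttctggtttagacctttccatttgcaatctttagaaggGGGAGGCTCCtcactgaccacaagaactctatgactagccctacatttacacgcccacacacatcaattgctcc
Both strands of the 250 bases before and 50 after each start were searched for 4 motifs. The NF-kB consensus matched in Ccr1, as in 8.46% of all 32851 promoters of that length, and TATAAA matched in Ccl12, as in 13.6%. TGANTCA (7.81% of promoters) and TTCNNNGAA (8.3%) matched in none of the 4 members. A match in these letters is a description of the sequence and not of binding.

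Upstream cytokines that are known to induce CC chemokines were read from a list of 10 genes, of which 8 were tested. Of these, 4 were called higher in lesional than baseline CTL skin, against 2.37% of all genes, none was called lower, and the median log2 fold change was 2.51 against -0.02 over all genes. Il1b, an alarm cytokine of macrophages and neutrophils, was at 4.56 and 2.55 CPM in baseline CTL, 4.62 and 1.33 CPM in baseline butyrate, 132 and 136 CPM in lesional CTL and 19.9 and 25.5 CPM in lesional butyrate skin. It rose by 5.23 (SE 0.61, FDR 0.0294) in lesional CTL skin, and between the lesional groups it differed by -2.56 (SE 0.53, FDR 0.737). Il6 differed by -2.59 between lesional groups (SE 0.56, FDR 0.737). Tnf rose by 1.66 in lesional CTL skin (SE 0.26, FDR 0.0412), from 1.94 and 2.55 CPM to 7.58 and 6.69 CPM, and stood at 5.49 and 5.86 CPM in lesional butyrate skin, where the groups differed by -0.33 (SE 0.25, FDR 1.00). Of the 8 tested cytokines, none was called between lesional groups, as was 0% of all genes. Their log2 fold changes were below 0 for 6 and above 0 for 2. Tnf, Il1b and Il6 were all lower in both lesional butyrate mice than in both lesional CTL mice, as were Ccl3, Ccl4 and 22.5% of all tested genes. The difference was small for Tnf and larger for Il1b and Il6, and the lesional groups overlapped for Ccl2.

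Among 12 NF-kB feedback and target genes, 1 was called higher in lesional CTL skin, against 2.37% of all tested genes. This was Bcl3 with 2.27 (SE 0.44, FDR 0.0693), and the median of the 12 was 0.61. Nfkbia, which encodes the inhibitor that holds NF-kB in the cytoplasm, was at 144 and 144 CPM in lesional CTL and 146 and 89.7 CPM in lesional butyrate skin. Between lesional groups none of the 12 was called, as was 0% of all genes, and 11 had log2 fold changes below 0. The median was -0.33 against -0.005 over all tested genes. Lower values in both butyrate mice than in both CTL mice were found for 8 of the 12 and for 22.5% of all genes. Of the 15 other CC ligands, 14 were tested and 1 (Ccl8) was called higher in lesional CTL skin, against 2.37% of all genes. Between lesional groups none was called, 8 had values above 0 and 6 below, with the largest differences in Ccl6 (-1.32) and in Ccl21a, a ligand of CCR7 that guides dendritic cells to lymph vessels (1.09, SE 0.41, FDR 0.970). Of 14 other CC receptors, decoys and members of the Cx3c axis, 13 were tested and 2 were called higher in lesional CTL skin, against 2.37% of all genes. None was called between lesional groups, where 9 had values below 0 and 4 above. Ccr3 and the atypical receptor Ccrl2 (-1.95, SE 0.73, FDR 0.961) differed most.

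The genes whose profile was most like that of the members were found by Pearson's r of log2(CPM + 0.5) over the 8 mice, among 14190 other genes with a mean of at least 1 CPM; points share their 4 groups, and a high r is easy to reach with 8 points. For the mean profile of the 8 members these were Antxr2 (r = 0.994), Tnfrsf1b, Fgr, Lilrb4 and Cd53 (r = 0.986). Ccl3 was most like Irg1 (r = 0.994), which encodes the itaconate-making enzyme of activated myeloid cells and ranged from 0 to 25.8 CPM over the 8 mice. Ccl2 was most like Vegfc (r = 0.980), Ccl7 like Layn (r = 0.984), Ccl12 like Ccnd3 (r = 0.969), Ccl4 like Bfsp1 (r = 0.986), Ccl5 like C6 (r = 0.976), Ccr1 like Tmem8 (r = 0.984) and Ccr2 like Gusb (r = 0.989). Among the members, r was 0.955 for Ccl3 and Ccl4, 0.947 for Ccl7 and Ccl12, 0.931 for Ccl2 and Ccl7 and 0.929 for Ccl4 and Ccr1, and lowest for Ccl3 and Ccl5 with 0.385.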

How the data were processed

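Gene counts of 8 skin libraries were used. Per the labels and the study's methods, the authors aligned reads with STAR 2.5.2 to GRCm38, counted them with featureCounts and deposited raw counts; the name of the deposited table says that counting was reverse-stranded and of protein-coding genes. Groups followed the labels' treatment (vehicle or SCFA, for short-chain fatty acid) and disease state (baseline or atopic dermatitis). The labels do not name butyrate or water, which were taken from the study's text.

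One edgeR 4.0.16 quasi-likelihood model (R 4.3.3, TMM, filterByExpr with a minimum count of 10, prior count 0.125, robust) with 4 group means was fitted to all 8 mice, with 4 residual degrees of freedom, and FDRs were adjusted over 15163 genes. Alternatives were other normalizations, no filter, a prior count of 2, the longest transcript as length, limma-voom (limma 3.58.1), DESeq2 1.42.0, only the compared mice, and 1 mouse left out. The fits were also run on simulated data with the same spread in every group, unlike the spread of the mice here. That run therefore does not bear on calls that depend on the baseline butyrate mice. RPKM used the union of exons in GENCODE vM21. Of the listed genes, 4 were matched by identifier under an older symbol. Members, gene lists and the naming rule (all members, Tnf, Il1b, Nfkbia and the 2 largest changes per list with a mean of at least 1 CPM) were chosen with earlier results of these data known. A further gene that the rule names is not reported here.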

Additional observations from a re-analysis of the deposited data

How the results depend on the processing

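Of 384 fold changes of members with 1 mouse left out, 304 kept direction and call, 28 gained a call, 10 lost it and 42 changed sign; of 348 under other alternatives, 311 kept both, 26 gained a call and 11 changed sign. Where 1 mouse was left, it was assumed to vary like the other groups. The cause of these changes was not tested.

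Members called between lesional groups numbered 0 to 3 with 1 mouse left out, 2 by DESeq2, 0 with only the compared mice and 3 without both baseline butyrate mice, against 0. In lesional against baseline CTL skin they numbered 0 to 6 with 1 mouse left out, 5 by DESeq2, 6 with only the compared mice and 6 without both baseline butyrate mice, against 2. In lesional against baseline butyrate skin the range was 0 to 6, and DESeq2 called 2. In lesional butyrate against baseline CTL skin the range was 0 to 3, with 2 by DESeq2, 1 with only the compared mice and 3 without both baseline butyrate mice. In baseline skin the range was 0 to 3, and for the difference of the butyrate effects 0 in every setting run.

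Signs changed mostly, but not only, in small differences: 0.74 for Ccl4 in lesional butyrate against baseline CTL skin, 0.58 for Ccl4 against baseline butyrate skin and -0.98 for Ccr2 in the difference of the butyrate effects also turned. Between lesional groups, Ccl2 was 0.063 by limma-voom, and with 1 mouse left out Ccl2 ranged from -0.52 to 0.73 and Ccl5 from -0.87 to 0.36. In baseline skin, limma-voom gave 0.054 for Ccl3, -0.43 for Ccl5 and -0.12 for Ccr1, RLE gave -0.0015 for Ccl5 and no normalization factors gave 0.020 for Ccl2. With 1 mouse left out, baseline differences ranged from -0.61 to 0.38 (Ccl2), -1.84 to 0.43 (Ccl7), -1.51 to 0.21 (Ccl12), -1.27 to 1.59 (Ccl3), -0.67 to 0.72 (Ccl4), -1.62 to 0.77 (Ccl5), -1.13 to 0.93 (Ccr1) and -0.55 to 1.08 (Ccr2). In lesional against baseline butyrate skin they ranged from -1.76 to 1.42 (Ccl4), -0.43 to 1.96 (Ccl5), -0.31 to 1.74 (Ccr1) and -0.31 to 1.32 (Ccr2), and in lesional butyrate against baseline CTL skin from -0.19 to 1.01 (Ccl12), -1.60 to 1.59 (Ccl4) and -0.40 to 0.83 (Ccl5). For the difference of the butyrate effects, Ccl2 was -0.0041 by DESeq2, -0.0030 by RLE and -0.057 without factors, limma-voom gave 0.12 for Ccl7 and 0.19 for Ccl5, and ranges were -0.49 to 0.76 (Ccl2), -0.99 to 1.28 (Ccl7), -0.62 to 1.10 (Ccl12), -0.90 to 1.49 (Ccl5) and -1.58 to 0.058 (Ccr2).

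No paired analysis was possible because no 2 compared groups have more than 1 replicate number in common. With 2 mice per group and few reads of Ccl3 and Ccl4 at baseline, fold changes against baseline are imprecise.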
